A study of Mus musculus with 12 samples.

Results

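Cytochrome P450 enzymes were followed at the RNA level in 6 spontaneous lung tumours and 6 normal lungs of B6C3F1 mice. The genes were those whose platform symbol names a P450 by family, subfamily and member, without pseudogenes, and whose probe set carries a single symbol. This gave 71 P450 genes, read by 94 probe sets, among 18193 genes in all. Cyp51, Ptgis and Tbxas1, which belong to the superfamily, have symbols of another form and were not included, 1 pseudogene was left out, and 4 further probe sets that name several P450 genes were not used. Where a gene had several probe sets, the one with the highest mean log2 signal over the 12 arrays stood for it.

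P450 enzymes are haem proteins of the endoplasmic reticulum and mitochondria that insert oxygen into lipophilic substrates, using electrons passed on by P450 reductase, cytochrome b5 or, in mitochondria, ferredoxin. Some make or degrade steroids, bile acids, retinoic acid and fatty acid mediators, and others oxidise drugs, solvents and tobacco constituents. In mouse lung they are most abundant in club cells, the secretory cells of the small airways, and several of them turn inhaled chemicals into reactive products.

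Both groups came from untreated mice of the B6C3F1 cross, 2 years old, in a long-term bioassay, and each sample was hybridised to 1 Affymetrix array. The labels give no sex and leave unstated whether each sample came from its own animal, so the p-values reflect variation among these 12 samples, which may be technical. Values are signal intensities on a linear scale, scaled by the authors to 1 trimmed mean per array; the median signal of an array was 151 to 164 in normal lungs and 126 to 150 in tumours. A difference is the tumour mean less the normal lung mean of log2(signal + 16), a scale that understates changes of dim genes, and is given with its standard error (6 arrays a group). Each adjusted p comes from limma's two-sided test, with the Benjamini-Hochberg method over all probe sets, and a gene rose or fell where it was under 0.05. A gene whose mean signal was under 149, the mean of the 12 array medians, in both groups is called dim. The samples are pieces of tissue, in which fewer cells of a type and less RNA per cell cannot be told apart.

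Of the 71 P450 genes, 18 fell in tumours, 1 rose and 52 did not pass the test. Among all 18193 genes, 17.4% fell and 12.1% rose. Each of the 18 P450 genes that fell did so by at least 1 log2 unit, as did 1911 of the 3158 that fell among all genes. For 14 P450 genes every tumour lay below every normal lung, which held for 11.7% of all genes. Every tumour lay above every normal lung for 0 P450 genes and for 6.74% of all genes. The median difference was -0.33 over the 71 P450 genes and -0.08 over all genes. Under quantile normalization, and also with each array centred on its median, 18 P450 genes were lower and 4 higher. Those scalings moved the median of all genes to 0.01 and 0.10, and centring gave 2327 genes lower and 3526 higher over the whole table, against 3158 and 2201 as reported.

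Signal above the dim limit was found for 27 P450 genes, and 44 were dim. Of the 27, 14 were above the limit in both groups, 9 through the normal lungs alone and 4 through the tumours alone, so that for the last 13 the limit itself favours a difference. Among the 14 above it in both groups, 6 fell (Cyp4b1, Cyp2f2, Cyp2b10, Cyp2s1, Cyp26b1 and Cyp27a1), Cyp4f16 rose and 7 did not pass. Of the 44 dim genes, 4 fell and 40 did not pass. Over the whole table, 2776 of 12066 genes above the limit and 382 of 6127 dim genes fell.

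**Figure D1:**
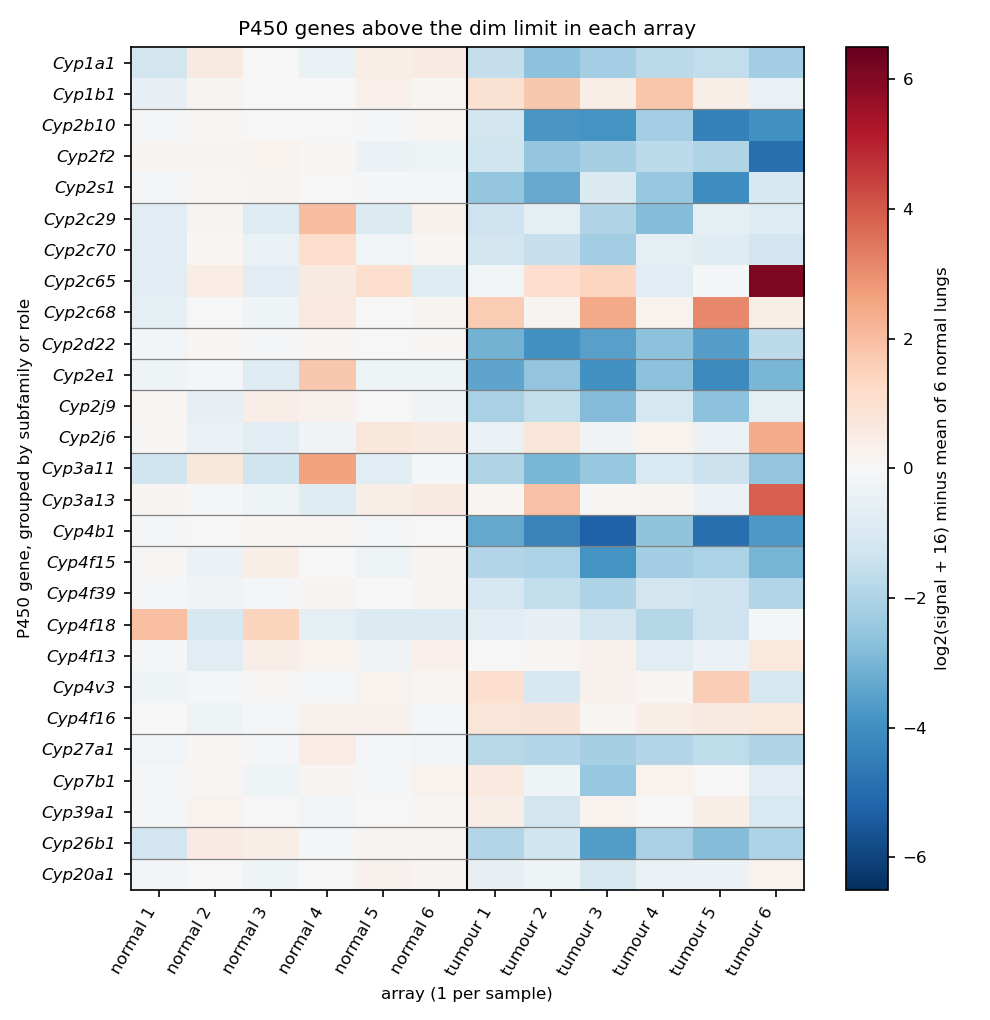
Log2(signal + 16) of the 27 P450 genes above the dim limit in each of the 12 arrays, as the difference from the mean of the 6 normal lungs (colour; blue lower, red higher); grey lines separate subfamilies or roles. Cyp4b1, Cyp2b10, Cyp2f2, Cyp2d22 and Cyp2e1 are blue in all 6 tumours, while Cyp2c65 and Cyp3a13 are darkest red in tumour 6 alone.

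The P450s of the airway epithelium gave the brightest signals and some of the largest falls. Cyp4b1, which hydroxylates fatty acids and activates protoxicants such as ipomeanol in lung, read 18454 to 22120 in normal lungs (median 20114). In tumours it read 502 to 3219 (median 1257). All tumours lay far below all normal lungs, with tumour 3 lowest and tumour 4 highest. The difference was -4.03 ± 0.35 (adjusted p = 1.08e-06), a 16.3-fold fall on this scale and the largest among the 71 genes.

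Cyp2f2, the club cell enzyme that activates naphthalene, read 31005 to 47544 in normal lungs (median 44117). In tumours it read 1339 to 16335 (median 9608). The groups did not overlap, and tumour 6 stood alone at the bottom, under the next lowest tumour at 6900. The difference was -2.42 ± 0.45 (adjusted p = 0.000988). The brightest probe set of each array lay between 39672 and 64503, so the normal lungs read Cyp2f2 near the top of the scale.

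The windows around the annotated starts of these genes are shown since Cyp4b1 fell most and Cyp2f2 was the brightest P450. They run from 250 bases before the start to 50 after it, in the direction of the gene, from RefSeq (GRCm38.p6), at chr4:115647672-115647971 (minus strand) for Cyp4b1 and chr7:27119705-27120004 (plus strand) for Cyp2f2. Neither window holds GCGTG or TATAAA on either strand.
Cyp4b1: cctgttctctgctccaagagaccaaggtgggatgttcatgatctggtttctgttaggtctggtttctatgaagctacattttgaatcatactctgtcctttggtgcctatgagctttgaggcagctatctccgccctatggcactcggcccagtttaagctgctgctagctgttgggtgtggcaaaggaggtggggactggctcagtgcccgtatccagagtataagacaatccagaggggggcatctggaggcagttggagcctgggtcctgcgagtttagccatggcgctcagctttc
Cyp2f2: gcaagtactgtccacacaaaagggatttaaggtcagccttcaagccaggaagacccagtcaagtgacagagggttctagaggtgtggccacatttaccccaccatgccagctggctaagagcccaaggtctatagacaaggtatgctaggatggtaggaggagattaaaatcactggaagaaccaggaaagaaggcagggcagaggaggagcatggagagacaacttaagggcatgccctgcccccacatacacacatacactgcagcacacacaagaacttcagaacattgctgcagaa

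Cyp2b10 and Cyp2s1 lie in the same gene cluster as Cyp2f2. Cyp2b10, which oxidises many drugs and is the classic target of the receptor Nr1i3 in liver, read 7201 to 8537 in normal lungs (median 7817). In tumours it read 364 to 3444 (median 537), with tumours 1 and 4 above the other 4 and still below every normal lung. The difference was -3.22 ± 0.43 (adjusted p = 5.37e-05), and the 3 probe sets of the gene gave -3.16, -3.18 and -3.22.

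Cyp2s1, an enzyme of surface epithelia that metabolises retinoids and eicosanoids, read 4631 to 5615 in normal lungs (median 4865). In tumours it read 293 to 2615 (median 885), highest in tumours 3 and 6. The difference was -2.36 ± 0.42 (adjusted p = 0.000666). Dim Cyp2b9 fell by 1.40 ± 0.38 on the log2 scale (adjusted p = 0.0126), from 113 ± 39.8 to 37.6 ± 30.5 signal units (SD, n = 6), and its groups overlapped. Cyp2a12, Cyp2b13, Cyp2b19 and Cyp2g1 were dim and did not pass. In RefSeq this cluster on chromosome 7 holds 13 P450 genes within 1 Mb steps, of which 8 were measured and 4 fell.

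**Figure D2:**
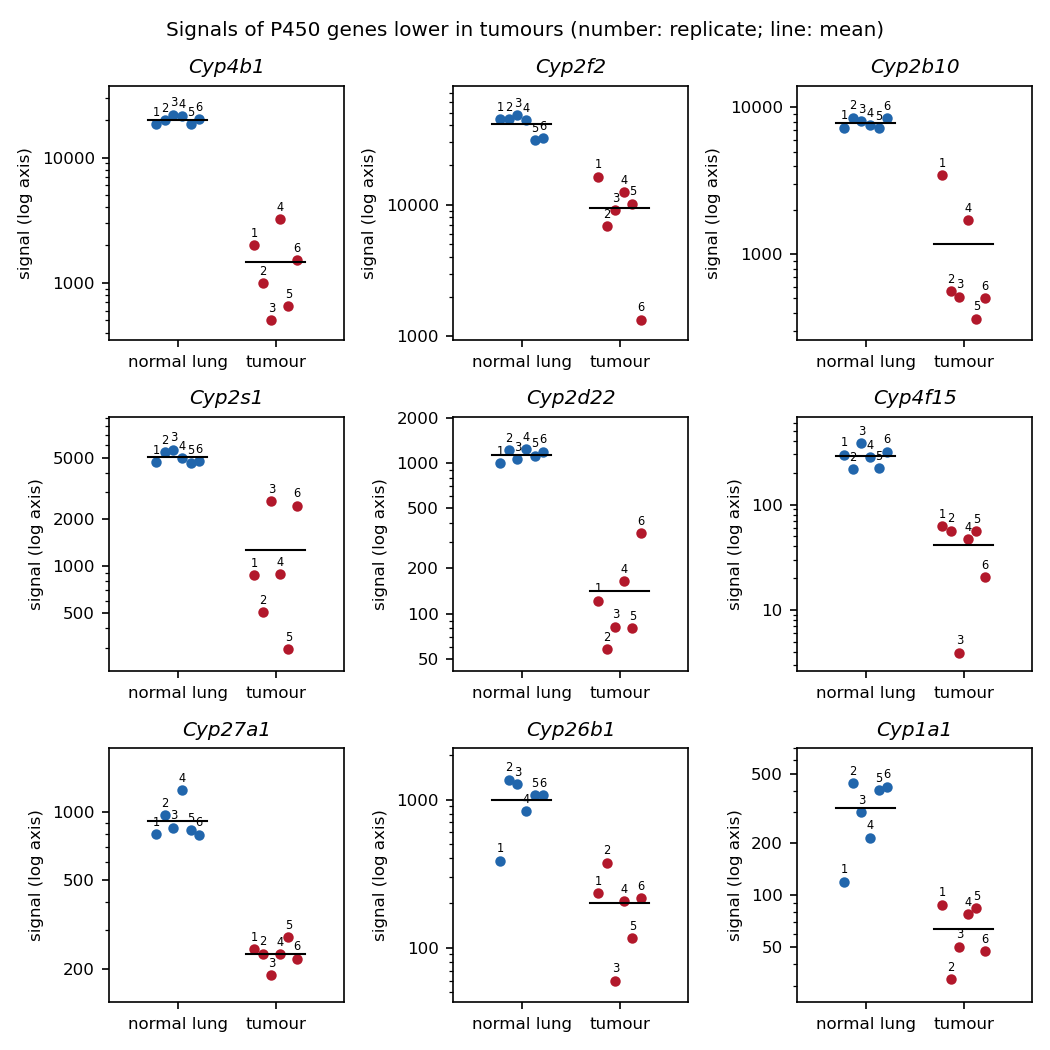
Signal on a log axis of 9 P450 genes that fell, by group; each point is 1 array with its replicate number, and the line is the group mean (n = 6). In every panel all 6 tumours lie below all 6 normal lungs, and in the panel of Cyp2f2 tumour 6, at 1339, lies apart from the other tumours.

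In the same samples, club cell markers moved in both directions. Of 11 markers measured, 6 fell and 2 rose, and their mean log2 level was 11.82 to 12.67 in normal lungs and 10.48 to 12.79 in tumours. Scgb1a1, the main club cell secretory protein, fell by 0.92 ± 0.28 on the log2 scale (adjusted p = 0.0263). Tumours 3 and 6 had the lowest club cell levels, 10.48 and 10.78. Among these P450 genes the order varied. Tumour 3 was lowest for Cyp4b1 and tumour 6 for Cyp2f2, while tumour 5 was lowest for Cyp2b10 and tumours 3 and 6 were highest for Cyp2s1. A link of these orders to the club cell levels was not tested.

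Other cell types shifted too. Of 14 ciliated cell markers 13 fell (8.95 to 9.39 in normal lungs, 6.48 to 7.67 in tumours), of 16 endothelial markers 16 fell (12.12 to 12.55 against 8.71 to 10.05), of 13 fibroblast and smooth muscle markers 12 fell (11.28 to 11.75 against 7.24 to 9.58) and of 10 type I cell markers 8 fell (12.42 to 12.72 against 10.17 to 11.66). Type II cell markers rose for 4 of 10 (13.12 to 13.34 against 12.92 to 14.45) and alveolar macrophage markers for 6 of 11, with 1 lower (9.38 to 10.13 against 10.42 to 12.15). The part of these shifts in the P450 values was not tested.

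The Cyp2d and Cyp2e subfamilies, which oxidise basic drugs and small solvents such as ethanol, had 1 member each above the dim limit, and both fell. Both passed the limit through the normal lungs alone, as did 9 P450 genes in all, of which 8 fell. The limit itself therefore favours a fall here. Cyp2d22 read 999 to 1237 in normal lungs (median 1154) and 57.9 to 344 in tumours (median 102). Tumour 6 was the highest of the tumours and lay below every normal lung. The difference was -3.08 ± 0.30 (adjusted p = 3.07e-06), and a second probe set of the gene gave -2.14 ± 0.32 (adjusted p = 0.000151). The other 7 Cyp2d genes were dim and did not pass. Of the 8 P450 genes of the Cyp2d cluster on chromosome 15, 7 were measured and Cyp2d22 alone fell.

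Cyp2e1 read 297 to 1856 in normal lungs (median 450) and 15.7 to 77.9 in tumours (median 45.3). The highest normal lung was number 4, and the next highest, number 2, read 509. The difference was -3.29 ± 0.40 (adjusted p = 2.53e-05), and -2.87 without normal lungs 2 and 4 (adjusted p = 0.000146).

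Family 1, whose members oxidise polycyclic aromatic hydrocarbons and are induced through the receptor Ahr with its partner Arnt, gave falls for Cyp1a1 and Cyp1a2 and no call for Cyp1b1. Cyp1a1 read 119 to 441 in normal lungs (median 351), lowest in normal lung 1. In tumours it read 33.0 to 88.1 (median 64.1), and no tumour reached the lowest normal lung. The difference was -2.00 ± 0.31 (adjusted p = 0.000247). Dim Cyp1a2 fell by 1.46 ± 0.37 on the log2 scale (adjusted p = 0.00856), from 52.4 ± 42.2 to 5.39 ± 3.76 signal units (SD, n = 6).

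Cyp1b1, which also hydroxylates oestradiol, read 308 to 570 in normal lungs (median 471) and 334 to 1637 in tumours (median 766). Tumours 2 and 4 were highest, and tumour 6 lay within the range of the normal lungs. The difference of 0.82 ± 0.32 did not pass (adjusted p = 0.0803), while a second, dimmer probe set gave 0.92 (adjusted p = 0.0489) and another, dim one -0.17. Without tumour 6 the difference was 1.07 and passed, as it did under quantile normalization, median centring and array weights. Ahr itself averaged 3351 ± 558 signal units over normal lungs and 3348 ± 1204 over tumours (SD, n = 6). Ahr differed by -0.05 ± 0.20 (adjusted p = 0.884) and Arnt by 0.33 ± 0.16 (adjusted p = 0.150).

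The start windows of Cyp1a1 and Cyp1b1 are shown since these genes share an inducer and their differences had opposite signs, though that of Cyp1b1 did not pass. The letters GCGTG, the core of the element that Ahr and Arnt bind, and TATAAA were searched on both strands, and matches are in capitals; the motifs do not overlap. The windows, in the direction of the gene from RefSeq (GRCm38.p6), lie at chr9:57697363-57697662 (plus strand) for Cyp1a1 and chr17:79715012-79715311 (minus strand) for Cyp1b1.
Cyp1a1: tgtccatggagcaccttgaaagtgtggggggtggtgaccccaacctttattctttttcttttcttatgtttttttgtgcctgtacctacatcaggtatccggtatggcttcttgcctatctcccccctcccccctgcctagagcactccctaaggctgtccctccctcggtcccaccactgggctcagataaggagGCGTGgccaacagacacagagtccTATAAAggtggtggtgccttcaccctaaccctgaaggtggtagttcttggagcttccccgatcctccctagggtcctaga
Cyp1b1: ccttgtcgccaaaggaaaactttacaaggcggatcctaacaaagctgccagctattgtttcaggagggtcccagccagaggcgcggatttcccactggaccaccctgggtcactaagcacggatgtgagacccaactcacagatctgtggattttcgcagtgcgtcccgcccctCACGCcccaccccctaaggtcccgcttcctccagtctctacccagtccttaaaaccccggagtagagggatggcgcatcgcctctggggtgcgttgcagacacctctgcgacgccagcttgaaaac
In Cyp1a1, GCGTG starts 54 bases and TATAAA 30 bases before the annotated start. In Cyp1b1, GCGTG stands on the reverse strand, printed as CACGC, 76 bases before it. Of 58 start windows of 51 P450 genes, 24.1% held GCGTG, against 32.4% of all 32851 windows of this length. TATAAA stood in 36.2% of the P450 windows and in 13.6% of all windows. Among the 17 genes that fell and have a window, 4 held GCGTG (Cyp1a1, Cyp2b10, Cyp2j9 and Cyp4f39) and 8 held TATAAA.

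**Figure D3:**
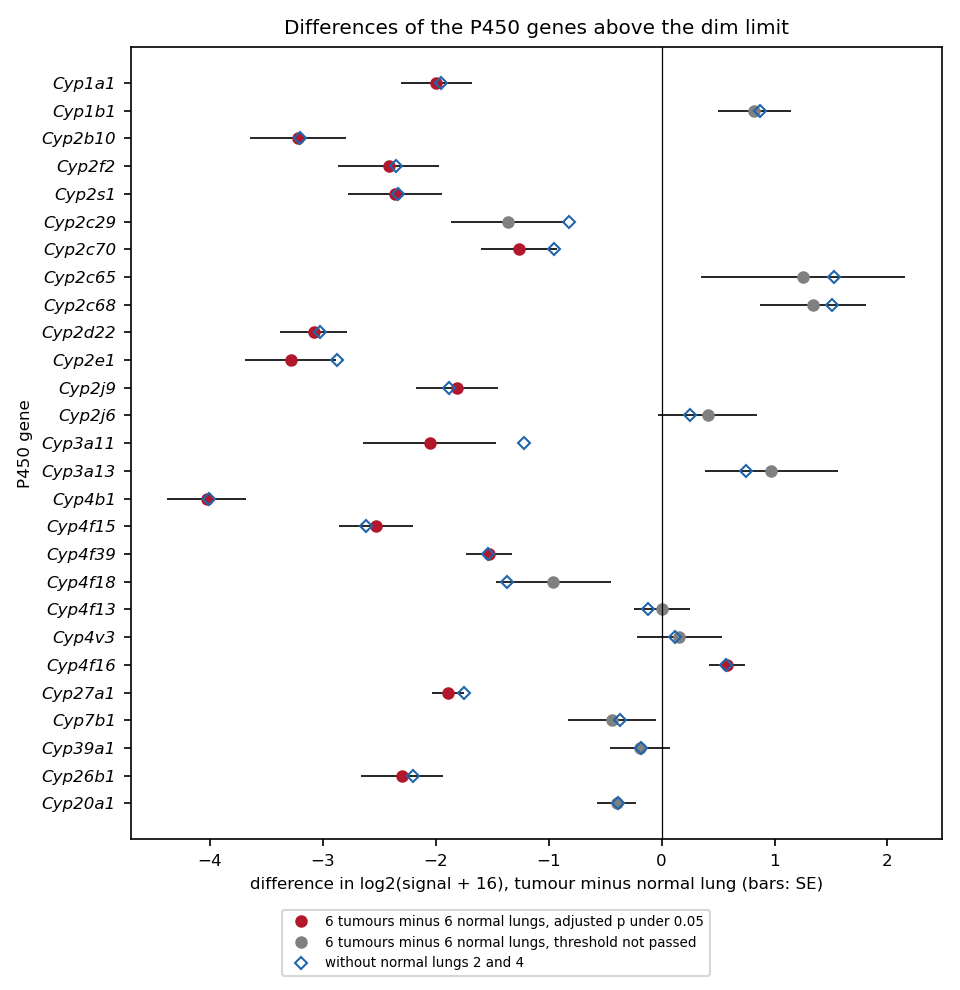
Difference of log2(signal + 16), tumour minus normal lung, for the 27 P450 genes above the dim limit (points; bars are SE, 6 arrays per group; red passed the adjusted p threshold, grey did not); open diamonds give the difference without normal lungs 2 and 4. Cyp3a11 moves most between the settings among genes that passed, from -2.06 to -1.22.

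The Cyp4 family, which hydroxylates fatty acids and leukotrienes at the end of the chain, was split beyond Cyp4b1. Cyp4f15 read 216 to 386 in normal lungs (median 290) and 3.92 to 62.2 in tumours (median 51.5), with tumour 3 lowest. The groups were apart, with a difference of -2.53 ± 0.33 (adjusted p = 4.25e-05).

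Cyp4f39, the counterpart of a human enzyme of skin barrier lipids, read 221 to 300 in normal lungs (median 253) and 52.1 to 111 in tumours (median 84.1). It fell by 1.53 ± 0.20 on the log2 scale (adjusted p = 5.86e-05), with no overlap.

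Cyp4f16 was the P450 gene that rose. It read 298 to 474 in normal lungs (median 367) and 423 to 706 in tumours (median 603), and the groups overlapped through tumour 3. The difference was 0.58 ± 0.16 (adjusted p = 0.0146), and its second probe set gave 0.14 (adjusted p = 0.630).

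The other members of the subfamily did not pass. Cyp4f13 differed by 0.00 ± 0.25. Cyp4f18, the leukotriene hydroxylase of neutrophils, differed by -0.96 ± 0.51 (adjusted p = 0.200), reading 1576 and 1079 in normal lungs 1 and 3 and 180 to 250 in the other 4. Neutrophil markers, a list added after values were seen, had a mean log2 level of 13.22 in normal lung 1, against 7.63 in normal lung 3 and 7.39 to 9.21 over the normal lungs other than the first. Their part in the Cyp4f18 values was not tested.

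Cyp4v3, the counterpart of a human fatty acid hydroxylase of the retina, read 972 to 1364 in normal lungs and 553 to 3551 in tumours. Tumours 1, 3 and 5 lay above every normal lung and tumours 2 and 6 below, and the difference was 0.16 ± 0.38 (adjusted p = 0.817). Members of this family are close in sequence, and RNA of one can bind the probes of another. On chromosome 17, 8 Cyp4f genes lie close together, of which 5 were measured, 2 fell and 1 rose. The 4 other genes of the Cyp4a and Cyp4x branches, with Cyp4f14, were dim and did not pass.

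Enzymes with endogenous substrates gave 2 falls. Cyp27a1, the mitochondrial sterol hydroxylase that starts the acidic route of bile acid synthesis, read 795 to 1258 in normal lungs (median 844) and 188 to 278 in tumours (median 234). The tumours lay close together and far below the normal lungs. The difference was -1.89 ± 0.14 (adjusted p = 4.07e-07), the smallest adjusted p among the 71 genes. A second probe set with mean signals of 9.01 and 17.9 gave 0.40 (adjusted p = 0.297), and averaging both gave -0.75, still past the threshold.

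Cyp26b1, which degrades retinoic acid, read 387 to 1360 in normal lungs (median 1070), with normal lung 1 lowest. It read 59.9 to 374 in tumours (median 211), with tumour 3 lowest and tumour 2 just below normal lung 1. The difference was -2.30 ± 0.37 (adjusted p = 0.000274). Cyp26a1, of the same function, was dim and did not pass.

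The oxysterol hydroxylases Cyp7b1 (-0.44 ± 0.39) and Cyp39a1 (-0.19 ± 0.26) did not pass, nor did Cyp20a1 (-0.40 ± 0.17, adjusted p = 0.115), an orphan with no settled substrate. Cyp7b1 read 40.9 in tumour 3 and 171 to 463 in the other tumours, against 242 to 353 in normal lungs. Cyp20a1 passed without tumour 6, at -0.53, and under array weights. A second probe set of Cyp20a1 gave -0.15 (adjusted p = 0.565) and another, dim one 0.32 (adjusted p = 0.519). The 5 enzymes of steroid hormone synthesis, Cyp11a1, Cyp11b1, Cyp11b2, Cyp17a1 and Cyp21a1, were dim with no call, as were Cyp24a1 and Cyp27b1 of vitamin D metabolism and Cyp7a1, Cyp8b1 and Cyp46a1 of bile acid and cholesterol turnover.

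The Cyp2j and Cyp2c subfamilies, which include epoxygenases of arachidonic acid gave falls for 1 of 5 and 2 of 11 measured genes, and Cyp3a, the broad drug oxidisers, for 2 of 5, where 17.4% of all genes fell. Cyp2j9 read 97.4 to 208 in normal lungs (median 154) and 7.56 to 95.8 in tumours (median 30.5), apart by a narrow margin. It fell by 1.81 ± 0.37 on the log2 scale (adjusted p = 0.00183). Cyp2j6 differed by 0.41 ± 0.44 (adjusted p = 0.563), and tumour 6 read 765 against 93.8 to 239 in the other tumours. A second probe set of Cyp2j6, with mean signals of 141 in normal lungs and 109 in tumours, gave -0.38 ± 0.24 (adjusted p = 0.297).

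Cyp2c65, known from the gut, read 2.12 to 50.6 in normal lungs and 2.66 to 64.9 in 5 tumours, and 2085 in tumour 6. Cyp3a13, also known from the gut, read 57.0 to 173 in normal lungs, 455 in tumour 2 and 1789 in tumour 6, with the other 4 tumours at 80.0 to 127. Neither difference passed (1.25 ± 0.90, adjusted p = 0.361, and 0.97 ± 0.59, adjusted p = 0.271).

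Tumour 6 was the highest of the 6 tumours for 8 of the 27 genes above the limit and tumour 1 for 7. Of the 27, 4 passed the limit through the tumours alone, and among them tumour 6 was highest for Cyp2c65, Cyp3a13 and Cyp2j6. The limit itself thus favours a high count for tumour 6, and its share over all genes was not tested. Tumour 6 had the highest signal of Hnf4a, a regulator of liver and gut epithelium, at 1987, with 716 in tumour 2 and 9.68 to 170 in normal lungs; that difference was 1.63 ± 0.93 (adjusted p = 0.238). Its mean type II marker level, 12.92, was the lowest of the 12 arrays.

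**Figure D4:**
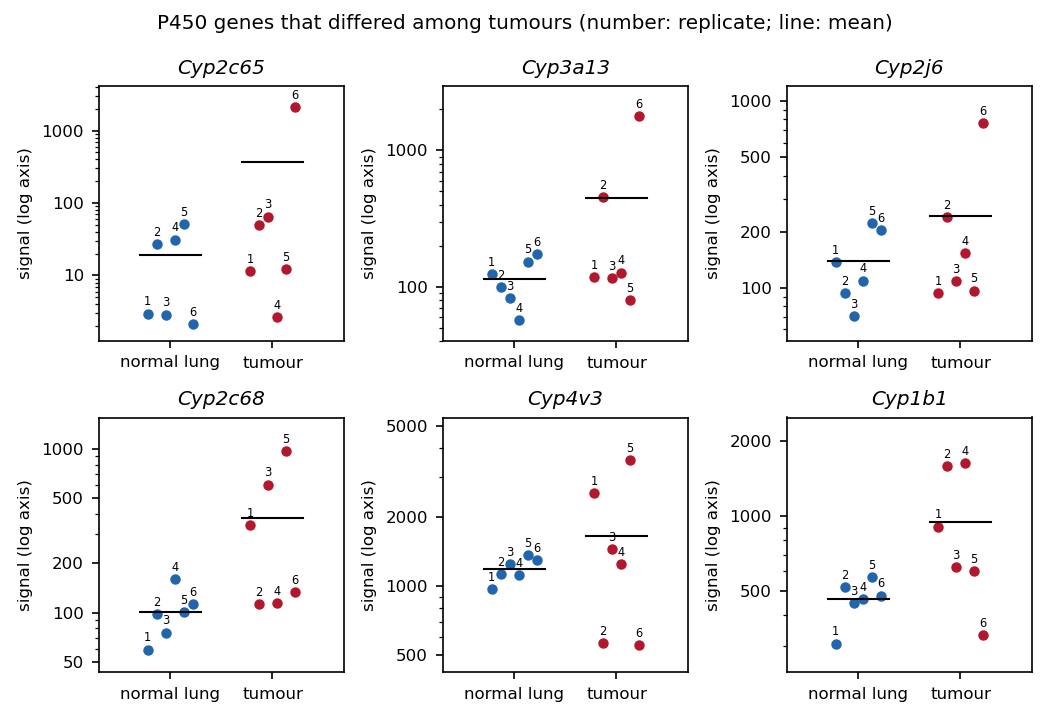
Signal on a log axis of 6 P450 genes above the dim limit that did not pass the test and spread widely among tumours; each point is 1 array with its replicate number, and the line is the group mean (n = 6). Tumour 6 is highest for Cyp2c65 (2085), Cyp3a13 (1789) and Cyp2j6 (765), and tumour 5 is highest for Cyp2c68 (965) and Cyp4v3 (3551).

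Cyp2c68 read 59.4 to 160 in normal lungs (median 98.8) and 113 to 965 in tumours (median 238). Tumours 1, 3 and 5 lay above every normal lung and tumours 2, 4 and 6 within their range. The difference of 1.34 ± 0.47 missed the threshold (adjusted p = 0.0508) and passed without tumour 2 (1.57), tumour 4 (1.57) or tumour 6 (1.53).

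Cyp2c70 read 96.2 to 383 in normal lungs (median 161) and 22.6 to 101 in tumours (median 62.4). The groups overlapped slightly, with a difference of -1.26 ± 0.33 (adjusted p = 0.0117). Cyp2c29 differed by -1.36 ± 0.51 (adjusted p = 0.0658). Dim Cyp2c38 fell by 1.08 ± 0.29 on the log2 scale (adjusted p = 0.0124), and the other 6 dim Cyp2c genes did not pass.

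Cyp3a11, the main Cyp3a enzyme of mouse liver, read 51.5 to 981 in normal lungs (median 111) and 5.22 to 65.0 in tumours (median 20.1). Tumour 4 lay above normal lungs 1 and 3, and the difference was -2.06 ± 0.59 (adjusted p = 0.0188). Dim Cyp3a44 fell by 1.45 ± 0.32 on the log2 scale (adjusted p = 0.00329), with no overlap. Probe sets of Cyp2c and Cyp3a genes can also read close relatives, so which copy gave the signal is uncertain. Cyp2r1 and Cyp2u1 were dim and did not pass.

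Normal lungs 2 and 4 carried transcripts of liver. The mean log2 level of 30 hepatocyte markers was 8.62 and 9.35 in these lungs, 6.11 to 7.38 in the other 4 and 6.23 to 7.16 in tumours. Albumin (Alb) read 13843 and 13722 in lungs 2 and 4 and 54.9 to 2069 in the other 4, and 9.89 to 4901 in tumours. Ttr read 2042 and 3903, and Serpina1b 3027 and 2241. Of the 30 markers, 9 fell and 2 rose (Apoc1 and Kng1, both higher in tumours than in either lung except Apoc1 in tumour 2).

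In lung 4, 8 P450 genes were above the dim limit and over 2 times the highest of the other 4 lungs; 4 of the 8 were also above those lungs in lung 2. Cyp3a11 read 260 and 981 in lungs 2 and 4 and at most 137 in the others. Cyp2c29 read 663 in lung 4 and 172 in lung 2, against at most 192 in the others, Cyp2c70 read 383 against at most 181, and dim Cyp3a25 347, with 14.6 in lung 2, against at most 30.2. Dim Cyp7a1, the rate-limiting enzyme of bile acid synthesis in liver, read 6.01 in lung 2 and 91.2 in lung 4, under the 126 of the highest other lung. Dim Cyp2d26 read 134 and 234 in lungs 2 and 4 and at most 9.34 in the others. Cyp4b1, Cyp2f2, Cyp2b10 and Cyp2s1 in lungs 2 and 4 were at most 1.01 times the highest of the other 4.

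Without lungs 2 and 4, 15 P450 genes were lower and 1 higher, and 14 of the 15 were among the 18. Over all genes, 2421 were then lower and 1525 higher, against 3158 and 2201 with all arrays. How far the lost P450 calls reflect liver transcripts, rather than fewer arrays, was not tested. The calls of Cyp3a11 (-1.22, adjusted p = 0.0630), Cyp2c70 (-0.95, adjusted p = 0.0672), Cyp2c38 (-0.99, adjusted p = 0.0650) and Cyp2b9 (-1.30, adjusted p = 0.0636) were lost, and dim Cyp2b13 was gained. Cyp4b1 (-4.01), Cyp2b10 (-3.20), Cyp2d22 (-3.03) and Cyp2f2 (-2.35) kept nearly the same differences.

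**Figure D5:**
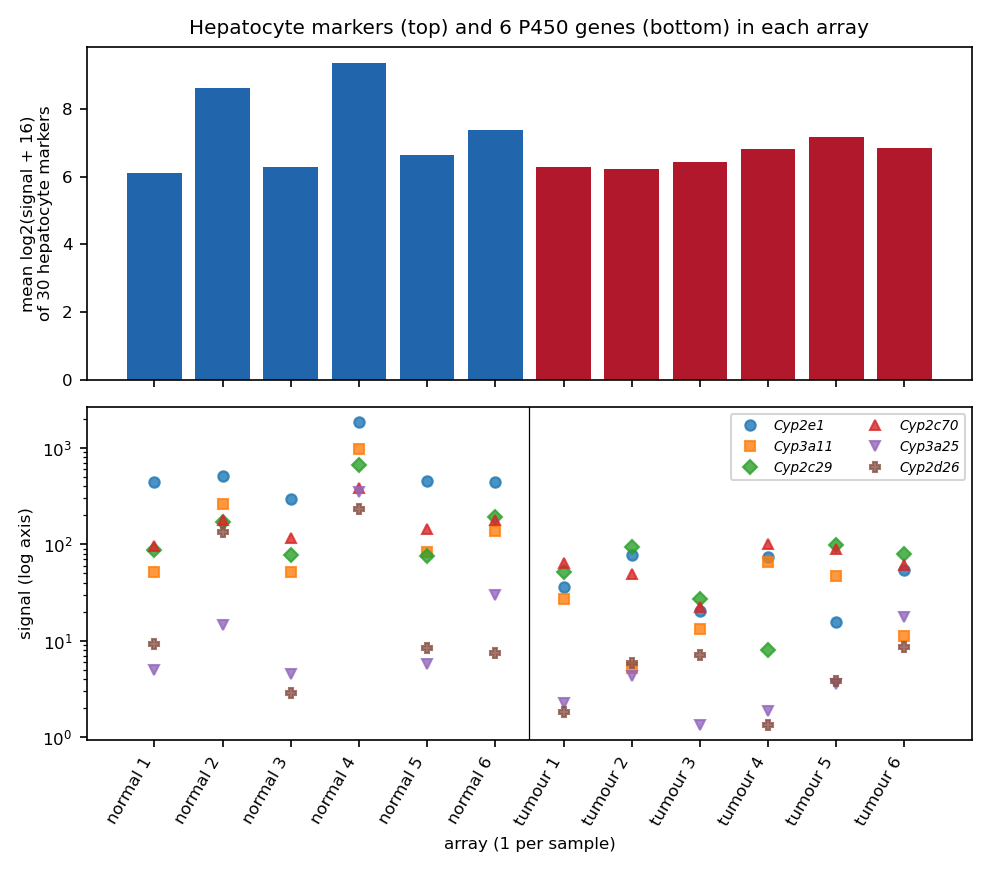
Top, mean log2(signal + 16) of 30 hepatocyte markers in each array (bars, blue normal lung, red tumour); bottom, signal of 6 P450 genes in the same arrays on a log axis. Normal lungs 2 and 4 have the highest marker means, 8.62 and 9.35, and normal lung 4 has the highest signal of all 6 genes.

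Sex-linked genes also differed between the samples. The normal lungs and tumours 4 and 6 read Xist at 7877 to 12621 and Eif2s3y, a Y-linked gene, at 2.09 to 27.4. Tumours 1, 2, 3 and 5 read Xist at 47.1 to 109 and Eif2s3y at 740 to 1638. With tumours 4 and 6 alone against the 6 normal lungs, 14 P450 genes were lower, 13 of them among the 18. Over all genes, 2519 were lower and 1633 higher in that comparison, against 3158 and 2201 over 6 tumours. Calls were lost for Cyp1a2 (-1.61, adjusted p = 0.0920), Cyp3a11 (-1.80, adjusted p = 0.222), Cyp3a44 (-1.17, adjusted p = 0.123) and Cyp2c70 (-0.94, adjusted p = 0.189), of which Cyp1a2 had a larger difference than over 6 tumours. Cyp2j9 was also lost, at -0.86 (adjusted p = 0.113), and the one higher gene, Cyp4f16, was at 0.57 and no longer passed (adjusted p = 0.0912).

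In that comparison Cyp4b1 was at -3.17, Cyp2d22 at -2.17 and Cyp2s1 at -1.74, against -4.03, -3.08 and -2.36 over 6 tumours. Cyp2f2 was at -3.28, against -2.42. Taken out of log2, each of these fold changes moved by more than 1.5-fold. Cyp2e1 (-2.81), Cyp2b10 (-3.05) and Cyp4f15 (-2.63) moved less. With Eif2s3y as a covariate 15 P450 genes were lower, 14 of them among the 18. Cyp4f16 did not pass (0.55, adjusted p = 0.116), nor did Cyp2j9 (-1.07, adjusted p = 0.0917). Over all genes, 2152 were lower and 1307 higher with the covariate.

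Of 20 measured genes of redox partners and haem supply, 4 fell and 6 rose, where 17.4% and 12.1% of all genes did; Por and Fdxr, the P450 and ferredoxin reductases, were not analysed here. Pgrmc1, a haem-binding partner of P450s, averaged 11534 ± 1047 signal units over normal lungs and 2920 ± 1443 over the tumours (SD, n = 6). It fell by 2.14 ± 0.29 on the log2 scale (adjusted p = 6e-05). Alas1, the first and rate-limiting enzyme of haem synthesis, fell by 1.24 ± 0.19 (adjusted p = 0.00016) and Cyb5a, cytochrome b5, by 0.63 ± 0.17 (adjusted p = 0.0134). Fech, which inserts iron into haem, fell by 0.74. Hmox1, which degrades haem, rose by 1.60 ± 0.33 (adjusted p = 0.00208) and Cpox, a later enzyme of synthesis, by 1.25 ± 0.28 (adjusted p = 0.00433). Alad, Uros, Hmox2 and Blvra rose by 0.51 to 0.83.

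Of 34 regulators of P450 genes measured, 7 fell and 4 rose, shares near those of all genes (17.4% and 12.1%). Hlf and Tef, clock-linked factors that drive detoxification genes in liver, fell by 1.84 ± 0.28 (adjusted p = 0.000178) and 1.20 ± 0.25 (adjusted p = 0.0024). Dbp, another such factor, went the other way, by 1.69 ± 0.60, and did not pass (adjusted p = 0.0518). Rarb, a retinoic acid receptor, fell by 1.65 ± 0.25 (adjusted p = 0.000153). Pparg, a fatty acid receptor that is also counted among the alveolar macrophage markers, rose by 2.46 ± 0.31 (adjusted p = 2.99e-05), Foxa3 by 2.07 ± 0.40 (adjusted p = 0.00135) and Cebpa by 1.60 ± 0.36 (adjusted p = 0.00401). Nr1i2 and Nr1i3, the main receptors that induce Cyp3a and Cyp2b genes in liver, were dim, with differences of -0.20 ± 0.26 and -0.37 ± 0.26, and Ppara differed by 0.19 ± 0.46 (adjusted p = 0.815). Without normal lung 3 or normal lung 6, 4 regulators fell.

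The tumour with the lowest signal varied among the P450 genes that fell. Over the 14 genes above the limit that fell, tumour 3 was the lowest tumour for 7, tumours 2 and 5 for 3 each and tumour 6 for 1, while tumours 1 and 4 were lowest for 0. Tumour 1 was the highest for 5 of the 14 and tumour 4 for 3. Of the 14, 8 passed the limit through the normal lungs alone. Some tumour is lowest for every gene, so these counts cannot show that the tumours differ in how far the P450s fell. The matching shares over all genes were not tested.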

How the data were processed

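RNA of 6 tumours and 6 normal lungs was hybridised to Affymetrix arrays, 1 per sample, after one-cycle labelling, per the labels. The authors deposited 1 signal intensity for each probe set, on a linear scale. The submitters' processing notes name MAS5; the version used and its settings are not given in the sources used here. Every array had the same 2% trimmed mean, so the scaling was kept.

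Of 45101 probe sets, 64 array controls were left out. Of the other 45037, 34945 carried 1 gene symbol in the platform annotation, 932 several and 9160 none. Under R 4.3.3, lmFit and eBayes (trend on, no covariate) of limma 3.58.1 were run on log2(signal + 16) of all of them. Tables used Python 3.11.15, numpy 2.4.6, pandas 2.3.3 and matplotlib 3.10.9. The fit was tested on simulated data. The number of arrays limits the precision.

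P450 genes above the dim limit that passed with a difference of 1 or more were given in full, the other P450 genes above it at least by difference, dim ones where they passed; of partners and regulators, those passing with 1 or more and 9 fixed genes. Other names were chosen after values were seen. The P450 genes, lists and alternatives were chosen with earlier results of these data known. Replicate numbers did not pair samples: correlations of same-numbered deviations were -0.0178 to 0.0217.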

Additional observations from a re-analysis of the deposited data

Results flagged for a closer look

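A sample far from the others of its group was found for 3 of 54 groups (27 P450 genes above the dim limit, in tumours and in normal lungs), by a rule that flags about 1 in 20 groups by chance. Cyp2c65 read 2085 in tumour 6, far above the other tumours. Cyp2e1 read 1856 in normal lung 4, which also had the highest hepatocyte marker level. Cyp2f2 read 1339 in tumour 6, far below the other tumours. The gap to the nearest sample took 0.69, 0.71 and 0.65 of the group's range.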

How the results depend on the processing

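Of the 27 P450 genes above the dim limit, 0 changed sign past the threshold under any alternative, and the 18 falls ranged from 14 to 22. The count of P450 genes that rose, 1 as reported, was 2 with an offset of 1 or 64, with dim probe sets filtered, without the intensity trend and with the mean of a gene's probe sets. It was 3 with array weights, 4 under quantile normalization or median centring, and 0 in limma with tumours 4 and 6 alone or Eif2s3y as a covariate (3 and 3 at an unadjusted p under 0.05). Leaving out 1 array gave 1 to 4: 4 without tumour 6, 3 without tumour 2, and 2 without tumour 4 or normal lung 6. The genes gained were Cyp1b1, Cyp2c68 and dim Cyp11b2 under the scalings. Over all genes, 3526 rose under median centring and 1307 with the covariate. Partner and haem genes that fell, 4 as reported, numbered 2 under median centring, without normal lungs 2 and 4, and with the covariate; those that rose, 6, numbered 3 with the covariate. Regulators that fell, 7, numbered 4 under median centring, without the intensity trend and without normal lungs 2 and 4, and 4 to 7 with 1 array left out; those that rose, 4, numbered 7 under median centring. The median difference of the 27 genes, -1.36, was -0.93 with an offset of 64 and -0.99 with tumours 4 and 6 alone, and -1.53 to -1.08 with 1 array left out. The median as reported over all 12066 genes above the limit was -0.02. The limit shapes the median of the 27, since 9 passed it through the normal lungs alone and 4 through the tumours alone. A larger offset shrinks the differences of low signals by its arithmetic, and the comparison with 2 tumours has fewer samples. The cause of the other moves was not tested. With an offset of 64 the differences of Cyp2e1 (-2.51), Cyp4f15 (-1.76), Cyp3a11 (-1.33) and Cyp2j9 (-1.12) were smaller and still passed. With the replicate number as a block (replicate block), 19 P450 genes fell and 1 rose, Cyp2b13 being gained. Dim genes, close to the offset, are the least certain.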
